A study of Mus musculus with 4 samples.

Results

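Input RNA of mouse liver was compared between Fto knockout and wild-type animals, gene by gene, over all 12883 genes of the authors' deposited table of that comparison. The series holds 20452 rows in its comparison tables, and the others belong to an antibody immunoprecipitate made from the same kind of RNA. The input consists of 2 groups, wild-type liver and Fto knockout liver, both on a C57/Bl6 background and labelled as liver biopsy, with 3 replicates stated for each group. DNase-treated total RNA went into libraries by the miCLIP protocol, a crosslinking method that maps methylated adenosines, with the cloning steps of iCLIP. The labels used here give no allele, sex, age, diet or time of day, nor whether each replicate was its own animal. The p-values therefore rest on a spread among samples that could be technical.

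Fto encodes an enzyme that takes methyl groups off methylated adenosines in RNA. The liver makes most plasma proteins, builds and breaks down glucose, fat, cholesterol and amino acids, and clears foreign compounds through cytochromes P450 and conjugating enzymes. Hepatocytes divide these tasks by position in the lobule. Cells around the central vein hold glutamine synthetase and many P450 enzymes, and cells around the portal tract hold urea cycle and glucose-making enzymes. Kupffer cells, sinusoidal endothelium, stellate cells and bile duct cells make up most of the rest.

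The authors' deposited table gives for each gene a mean normalized count over all libraries, a log2 fold change with its standard error (SE), a p-value and an adjusted p-value. It gives no value of a single library, so the spread within a group is seen only through the SE, and groups cannot be checked for overlap. The table does not state its direction. Fto was lower, and on that ground values were taken as knockout over wild type, so the sign of Fto is no separate result. Genes with an adjusted p under 0.05 in the table were called changed. Genes were ranked and counted within lists at a mean of at least 10, which 9301 genes reached. Of these, 4709 (50.6%) had a fold change above 0, and the median log2 fold change was 0.00 with quartiles at −0.15 and 0.15.

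Differences between the groups were small for nearly all genes. Among the 9301 genes, 8 had a log2 fold change over 1 and 3 under −1. The fold changes are on a scale pulled towards 0, with no SE above 0.302, so they understate changes of genes with few reads. Of all genes with a p, 2.21% had an unadjusted p under 0.05, fewer than the 5% that an even spread of p-values would give. At a mean of at least 10 it was reached by 2.53% of genes, 1.34% higher and 1.2% lower, and these shares are the background for the counts in gene lists. In either direction the share was 2.50% at means of 10 to 30, 2.20% at 30 to 100 and 2.92% at 100 to 1000. At 1000 or more it was 6.13%, so the background is too low for lists of very abundant genes. Across these genes the log2 fold change was nearly unrelated to the mean (Spearman −0.03, 9301 genes) and to the genomic span of the gene (Spearman −0.05, 9228 genes). The 165 genes with a mean of at least 1000 lay slightly lower, with a median of −0.06 and quartiles at −0.20 and 0.11. These correlations run over genes of the same libraries and are given as a description. Mitochondrial 16S rRNA (mt-Rnr2) made up 22.9% of the summed means and stood at 0.11 (SE 0.23) in the authors' deposited table.

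The targeted gene and 4 others passed the threshold, which is 0.0389% of the 12865 genes with a p in the authors' deposited table. Of the 5 called genes, 3 were higher (0.0233%) and 2 lower (0.0155%). Fto, on chromosome 8 (chr8:91313367-91668433, mm10), fell by 1.49 on the log2 scale (SE 0.27, adjusted p = 3.52e-04, mean 55.8), 0.357 of the wild-type level, in the authors' deposited table. Some Fto reads remained in the table, and the part of the gene they came from is not given in it. The predicted gene Gm10382 fell by 1.29 (SE 0.30, adjusted p = 0.0453, mean 30.7) in the authors' deposited table.

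The called rises were a ubiquitin ligase, a hormone carrier and a carboxylesterase. Trim36, whose protein is a ubiquitin ligase of the tripartite motif family, rose by 1.36 (SE 0.28, adjusted p = 0.00484, mean 109), a 2.58-fold difference, in the authors' deposited table. Other genes of the family were not called. Of 26 Trim genes at a mean of at least 10, Trim36 was the only one at an unadjusted p under 0.05, and the next by p, Trim24, stood at 0.38 (SE 0.28) in the authors' deposited table. Serpina7 (chrX:139079249-139085236) encodes thyroxine-binding globulin, which carries thyroid hormone in plasma. It rose by 1.32 (SE 0.27, adjusted p = 0.00484, mean 225), a 2.50-fold difference, in the authors' deposited table. Ces1b (chr8:93056725-93080017), an esterase that cleaves lipids and drugs, rose by 1.08 (SE 0.24, adjusted p = 0.0313, mean 137), a 2.11-fold difference, in the authors' deposited table. The neighbouring Ces1 paralogs lay near 0 in the authors' deposited table, with Ces1c at −0.02, Ces1d at 0.08, Ces1e at −0.07, Ces1f at 0.01 and Ces1g at 0.21, each with an SE from 0.23 to 0.29. Ces1 paralogs are alike in sequence, and the authors' counting could have split reads between them.

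**Figure D1:**
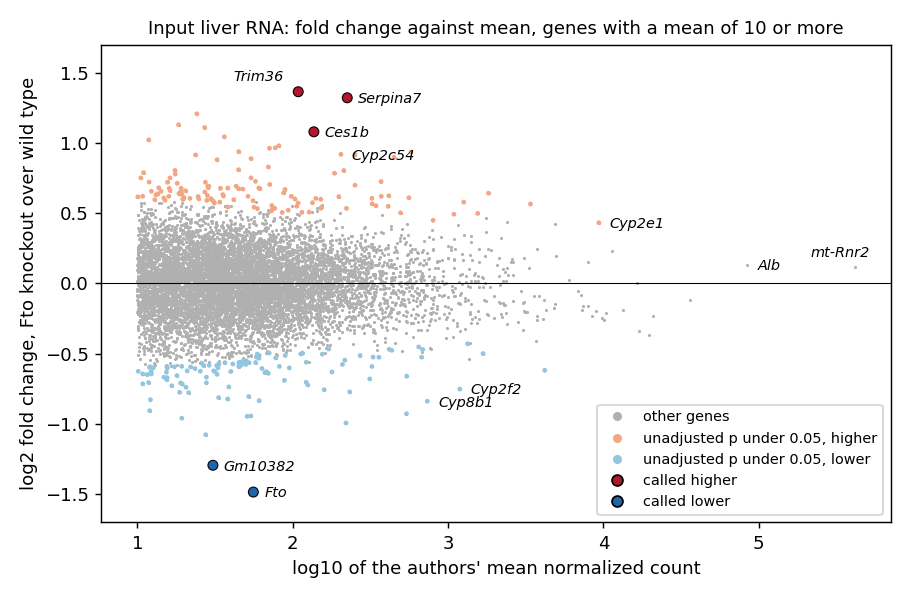
Log2 fold change of input RNA, Fto knockout over wild type, against the log10 of the authors' mean normalized count, 1 point per gene for 9301 genes with a mean of at least 10. Large outlined points are the 5 genes with an adjusted p under 0.05, and smaller coloured points are genes at an unadjusted p under 0.05; most genes lie between −0.5 and 0.5 at every mean.

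The sequence before the start site is shown for Serpina7 and Ces1b, the called genes besides the targeted Fto that have an entry in the promoter table, and for the highest pericentral gene with an entry, Cyp2c37, and the lowest periportal gene, Cyp2f2. Each run holds the 250 bases before the most upstream RefSeq start (GRCm38.p6), 5′ to 3′ on the gene's strand. Capitals mark matches, on either strand, to a TATA box (TATAAA), an HNF1 site (GTTAAT and TAAC with 3 bases between them), a CEBP site (TTGCNNAA) or a nuclear receptor site (AGGTCA); HNF1 and CEBP proteins and nuclear receptors are liver transcription factors.
Serpina7, chrX:139085237-139085486, minus strand: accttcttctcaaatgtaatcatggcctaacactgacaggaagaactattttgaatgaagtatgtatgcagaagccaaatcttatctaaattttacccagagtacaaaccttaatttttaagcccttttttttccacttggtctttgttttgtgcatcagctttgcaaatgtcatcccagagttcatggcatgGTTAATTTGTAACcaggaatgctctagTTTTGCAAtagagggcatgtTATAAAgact
Ces1b, chr8:93080018-93080267, minus strand: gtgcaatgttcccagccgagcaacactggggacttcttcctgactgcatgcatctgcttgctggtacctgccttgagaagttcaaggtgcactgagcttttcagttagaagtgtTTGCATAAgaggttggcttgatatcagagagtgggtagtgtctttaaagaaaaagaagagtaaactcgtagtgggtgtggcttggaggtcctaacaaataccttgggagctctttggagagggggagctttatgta
Cyp2c37, chr19:39992174-39992423, plus strand: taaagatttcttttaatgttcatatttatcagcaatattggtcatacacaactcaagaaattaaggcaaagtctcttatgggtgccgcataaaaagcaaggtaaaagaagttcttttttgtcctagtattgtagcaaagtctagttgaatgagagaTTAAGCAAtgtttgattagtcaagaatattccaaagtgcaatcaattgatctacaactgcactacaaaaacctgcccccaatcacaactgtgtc
Cyp2f2, chr7:27119705-27119954, plus strand: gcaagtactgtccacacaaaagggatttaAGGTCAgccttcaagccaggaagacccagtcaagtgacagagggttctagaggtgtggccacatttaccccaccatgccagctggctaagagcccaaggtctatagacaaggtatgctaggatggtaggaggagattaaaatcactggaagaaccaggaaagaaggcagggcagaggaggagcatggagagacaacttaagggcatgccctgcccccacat

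The Serpina7 window held an HNF1 match, a CEBP match and a TATA box, and the windows of Ces1b and Cyp2c37 each held 1 CEBP match. Among 32817 windows of the same length, 0.0823% held the HNF1 motif, 9.57% the CEBP motif, 12.4% the TATA box and 14.0% the nuclear receptor site, which the Cyp2f2 window held. The CEBP and HNF1 matches did not overlap. A match is a description of these letters.

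Beyond the called genes, the top of the ranking by fold change over SE held liver metabolic genes that did not pass the threshold. The 15 highest genes spanned log2 fold changes from 0.78 to 1.36, and 3 of them were called. Among the others, Cyp2c54, a drug-metabolising P450, stood at 0.92 (SE 0.25), and Ahr, the receptor for dioxin-like compounds, at 0.78 (SE 0.23) in the authors' deposited table. Igfbp2, a binding protein of insulin-like growth factors, stood at 0.94 (SE 0.28) and Alas1, which sets the rate of heme synthesis in liver, at 0.90 (SE 0.27) in the authors' deposited table. Hsd17b6, a steroid and retinoid dehydrogenase, stood at 0.97 (SE 0.29) and Cyp39a1, an oxysterol hydroxylase of bile acid synthesis, at 0.98 (SE 0.30) in the authors' deposited table. Slc22a26, of the organic anion transporters, stood at 1.02 (SE 0.29), Postn, the matrix protein periostin, at 1.04 (SE 0.28), and the class II antigen presentation gene H2-Ab1 at 0.96 (SE 0.29) in the authors' deposited table. The rest were Tspyl4 at 1.13, the U1 snRNA copy Gm23240 at 1.21 and the processed pseudogene Gm13000 at 1.11 in the authors' deposited table.

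The 15 lowest genes spanned −1.49 to −0.75, and 2 of them were called. Alas2, the heme synthesis enzyme of red cell precursors, stood at −0.99 (SE 0.29), and F2r, a thrombin receptor, at −0.95 (SE 0.27) in the authors' deposited table. Cyp8b1, which makes the 12-hydroxylated bile acids, stood at −0.84 (SE 0.25, mean 736) and Slc25a47, a mitochondrial carrier of hepatocytes, at −0.93 (SE 0.28, mean 540) in the authors' deposited table. Cyp2f2, a P450 of periportal hepatocytes, stood at −0.75 (SE 0.24, mean 1190) and Hykk, the hydroxylysine kinase, at −0.76 (SE 0.25) in the authors' deposited table. The centrosome and cilium genes Cep162 and Tacc2 stood at −0.94 (SE 0.26) and −0.80 (SE 0.26), and the procollagen protease gene Adamts2 at −0.91 (SE 0.30), in the authors' deposited table. Ms4a13 at −1.08, Gm4956 at −0.96, Fbxw9 at −0.82 and Atg16l2, an autophagy gene, at −0.81 completed the group in the authors' deposited table.

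**Figure D2:**
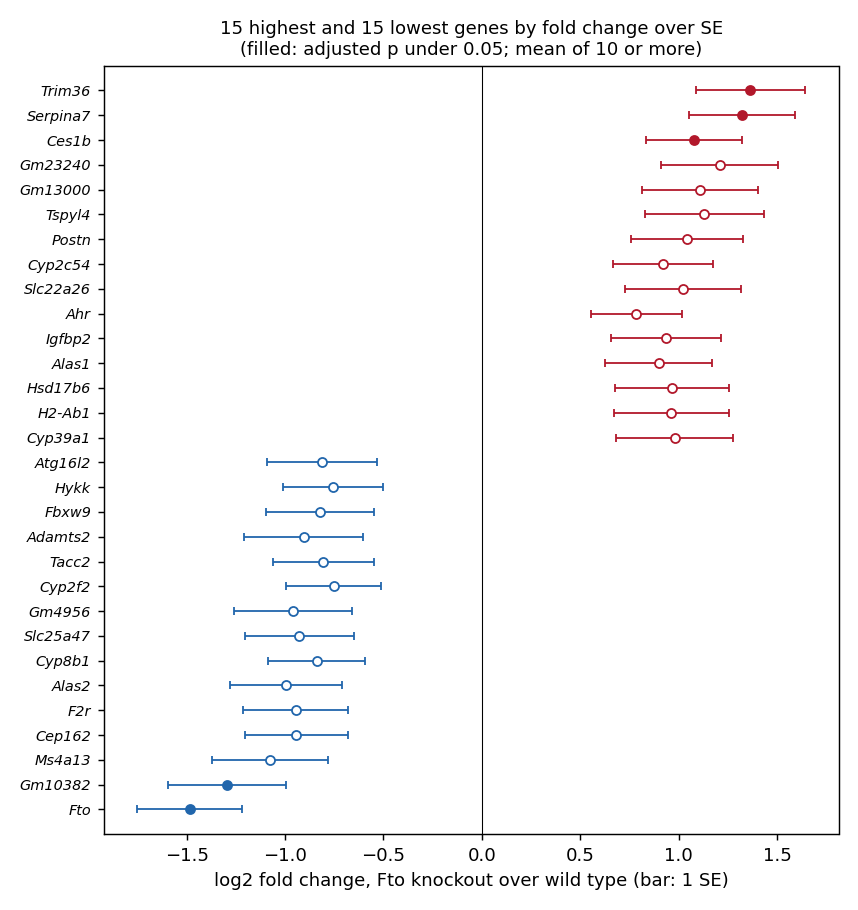
Log2 fold change, knockout over wild type, of the 15 highest and 15 lowest genes by fold change over SE at a mean of at least 10, with bars of 1 SE. Filled points passed the adjusted threshold (Trim36, Serpina7, Ces1b, Gm10382 and Fto); the other 25 did not.

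Hepatocyte genes were then grouped by their usual position in the lobule. The lists here and below were chosen with earlier results of these data known. The pericentral list holds the top-ranked Cyp2c54 and Ahr, so its counts are not independent of the ranking. Pericentral genes lay mostly above 0. Of 39 listed, 36 reached a mean of 10, of which 31 were above 0, with a median of 0.28 against 0.00 over all genes. At an unadjusted p under 0.05, 9 were higher and 0 lower, against background shares of 1.34% and 1.2%, and none passed the adjusted threshold. The 12 pericentral genes that stand in no other list had a median of 0.18. The glutamine synthetase gene Glul, at the last row of cells around the central vein, stood at 0.50 (SE 0.21, mean 1552), and the ethanol-oxidising Cyp2e1 at 0.43 (SE 0.21, mean 9351) in the authors' deposited table. Cyp1a2, a P450 under AHR control, stood at 0.55 (SE 0.23) and Cyp7a1, the rate-limiting enzyme of bile acid synthesis, at 0.61 (SE 0.29) in the authors' deposited table. Slc1a2, a glutamate carrier, stood at 0.42 (SE 0.25) and Oat, ornithine aminotransferase, at 0.37 (SE 0.23), neither at an unadjusted p under 0.05, in the authors' deposited table.

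Not all pericentral genes lay high. The Wnt pathway genes Axin2 and Lgr5, which respond to the Wnt ligands of the central vein, both stood at 0.03 (SE 0.30), Rnf43 at −0.04 (SE 0.26) and Tbx3 at −0.16 (SE 0.27) in the authors' deposited table. Rspo3, the Wnt enhancer made by central vein endothelium, stood at 0.27 (SE 0.30) and the ligand gene Wnt2 at −0.41 (SE 0.30) in the authors' deposited table. Members of the Cyp2c cluster led the list, with Cyp2c37 at 0.92 (SE 0.28), Cyp2c29 at 0.64 (SE 0.25) and Cyp2c50 at 0.61 (SE 0.24) beside Cyp2c54 in the authors' deposited table. These genes are near neighbours alike in sequence, so reads could be split between them and they are not independent. Without the Cyp2c genes, an alternative added after the data were seen, 31 pericentral genes had a median of 0.20, with 26 above 0 and 5 higher at an unadjusted p under 0.05.

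Periportal genes lay on both sides of 0. All 31 listed reached a mean of 10, with a median of 0.03, 18 above 0, and 2 higher and 2 lower at an unadjusted p under 0.05. Beside Cyp2f2, the lower gene was Ftcd, of histidine breakdown, at −0.45 (SE 0.21) in the authors' deposited table. The higher genes were Hsd17b6 and Tat, which encodes tyrosine aminotransferase, at 0.57 (SE 0.26) in the authors' deposited table. The urea cycle gene Cps1 stood at 0.23 (SE 0.21), the gluconeogenic Pck1 at 0.11 (SE 0.29), Sds at 0.01 (SE 0.29) and Hal at −0.33 (SE 0.26) in the authors' deposited table. The difference between the lists was not tested.

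**Figure D3:**
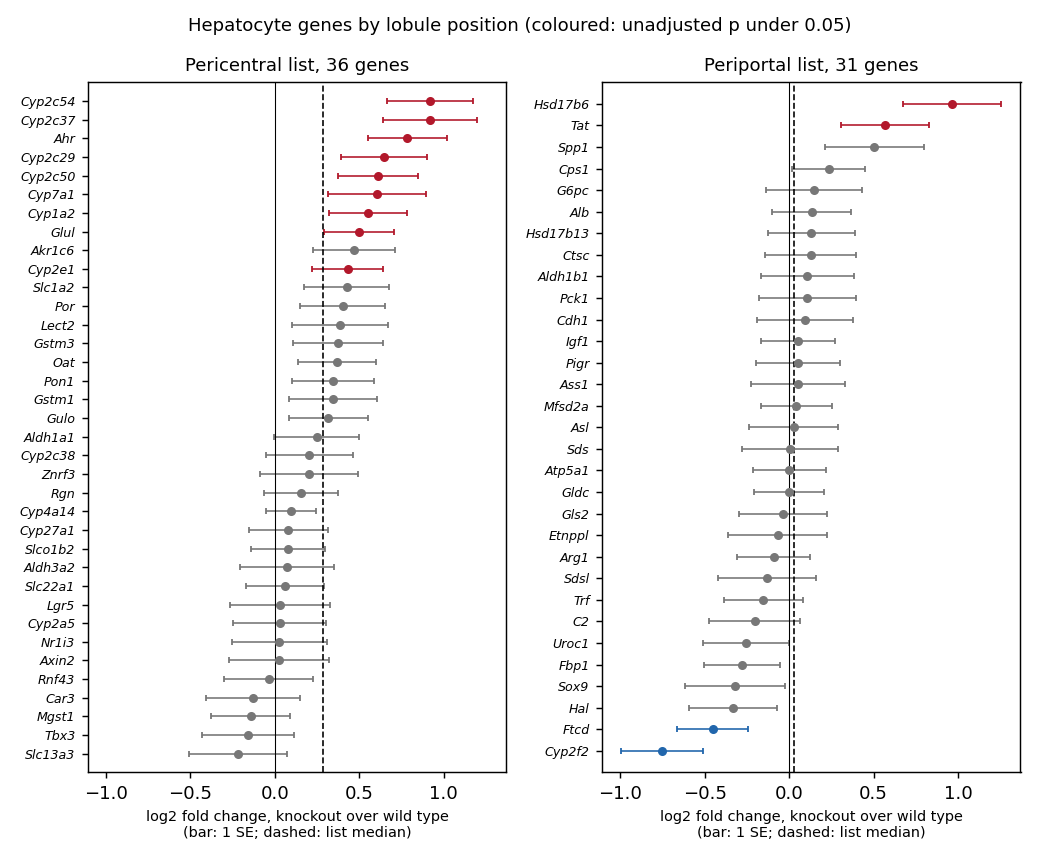
Log2 fold change, knockout over wild type, with bars of 1 SE, for 36 pericentral and 31 periportal hepatocyte genes at a mean of at least 10. Coloured points are at an unadjusted p under 0.05, and dashed lines are the list medians of 0.28 and 0.03.

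Targets of the xenobiotic receptors CAR and PXR overlapped the pericentral list. At a mean of at least 10, 27 were measured, and 10 of them (37.0%) are also 27.8% of the pericentral list. At an unadjusted p under 0.05, 7 were higher and 0 lower, against background shares of 1.34% and 1.2%. Their median was 0.31, with 22 above 0. With no minimum mean it was 0.18 over 30 genes. Without the Cyp2c genes 22 remained with a median of 0.09, and 3 were higher at an unadjusted p under 0.05. Those 3 were Alas1, the sulfotransferase gene Sult1d1 at 0.80 (SE 0.27) and the glutathione transferase gene Gstm2 at 0.59 (SE 0.28) in the authors' deposited table. Cyp2b10, the best-known CAR target, stood at 0.04 (SE 0.14, mean 16.4) and Cyp3a11, the PXR target, at 0.42 (SE 0.26) in the authors' deposited table. The receptor genes themselves stood at 0.03 (SE 0.28) for Nr1i3 (CAR) and −0.29 (SE 0.26) for Nr1i2 (PXR) in the authors' deposited table.

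Drug-metabolising P450 genes held members on both sides. Of 40 at a mean of at least 10, 25 were above 0 with a median of 0.08, and at an unadjusted p under 0.05 there were 8 higher and 3 lower, against background shares of 1.34% and 1.2%. The lower ones included Cyp2f2 and Cyp2d9, a male-biased steroid hydroxylase, at −0.66 (SE 0.28) in the authors' deposited table. Of the 40, 9 are also in the pericentral list and 11 are also CAR or PXR targets, and both sets hold the Cyp2c genes named above. These counts are therefore not independent. The 19 P450 genes that stand in no other list had a median of −0.02. Conjugating enzymes and carboxylesterases had a median of 0.02 over 47 genes, with 4 higher, among them Ces1b, and 2 lower. Sult1a1 stood at 0.57 (SE 0.27), the epoxide hydrolase gene Ephx1 at −0.48 (SE 0.23) and Ces3b at −0.53 (SE 0.26) in the authors' deposited table. Targets of the antioxidant regulator NFE2L2 had a median of −0.01 over 26 genes, with Cbr1, a carbonyl reductase, at 0.70 (SE 0.28) in the authors' deposited table.

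Bile acid synthesis genes lay on both sides of 0. Cyp7a1, of the main pathway, and Cyp39a1 stood above 0 while Cyp8b1 stood below it, each with the values given above. Cyp27a1, of the alternative pathway, stood at 0.08 (SE 0.24) and Cyp7b1 at −0.17 (SE 0.26) in the authors' deposited table. The bile salt export pump Abcb11 stood at −0.02 (SE 0.22), the uptake carrier Slc10a1 at 0.14 (SE 0.23), the receptor Nr1h4 (FXR) at −0.11 (SE 0.24) and its target repressor Nr0b2 at −0.32 (SE 0.26) in the authors' deposited table. The list of 30 had a median of 0.08, with 2 higher and 1 lower at an unadjusted p under 0.05.

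Sterol synthesis genes lay slightly above 0 as a group. Of 25, 21 were above 0 with a median of 0.17, and none reached an unadjusted p under 0.05. The regulator Srebf2 stood at −0.17 (SE 0.24) in the authors' deposited table. Glycolysis and fat synthesis genes had a median of −0.07 over 29, none at an unadjusted p under 0.05, with Fasn at −0.14 (SE 0.29) and its regulator Srebf1 at 0.33 (SE 0.22) in the authors' deposited table. Fatty acid oxidation and ketone body genes had a median of 0.01 over 28. Among them Acsl1, which activates fatty acids, stood at −0.43 (SE 0.20) and Cpt1a, which admits them to mitochondria, at −0.15 (SE 0.21) in the authors' deposited table.

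Targets of the lipid receptor PPARA, listed with its own gene Ppara, had a median of −0.12 over 26 genes. At an unadjusted p under 0.05, 3 were lower and 1 higher, against background shares of 1.2% and 1.34%. Of the lower ones, Ppara and Creb3l3 are counted again among the liver transcription factors below. Ppara stood at −0.51 (SE 0.24), Creb3l3, a membrane-bound regulator of fasting genes, at −0.47 (SE 0.22) and Angptl4, a lipoprotein lipase inhibitor, at −0.72 (SE 0.29) in the authors' deposited table. The pyruvate dehydrogenase kinase gene Pdk4 stood the other way, at 0.60 (SE 0.29), in the authors' deposited table.

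Glucose output genes had a median of 0.03 over 25. The insulin-repressed Igfbp1 stood at 0.94 (SE 0.30, mean 45.0) in the authors' deposited table. G6pc, which releases free glucose, stood at 0.15 (SE 0.29) in the authors' deposited table. Amino acid breakdown genes had a median of 0.03 over 55, with 3 higher and 3 lower at an unadjusted p under 0.05. Acmsd, of tryptophan breakdown, stood at 0.68 (SE 0.27) in the authors' deposited table. Csad, of taurine synthesis, stood at −0.68 (SE 0.28) and Afmid, an earlier enzyme of tryptophan breakdown, at −0.58 (SE 0.28) in the authors' deposited table.

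Thyroid and steroid hormone genes were listed because Serpina7 was called. Of 16 thyroid hormone carriers and targets, 9 were above 0 (median 0.03), and 3 were higher at an unadjusted p under 0.05. Without Serpina7, which prompted the list, 2 of 15 were higher and the median was 0.02. Beside Serpina7 and Cyp7a1 this was Slc16a10, a carrier of aromatic amino acids and thyroid hormone, at 0.73 (SE 0.24, mean 371) in the authors' deposited table. The hormone-responsive genes Dio1 at 0.04 (SE 0.28) and Thrsp at −0.07 (SE 0.23) and the receptor gene Thrb at −0.09 (SE 0.26) lay near 0 in the authors' deposited table. Ttr, another plasma carrier of the hormone, stood at −0.16 (SE 0.20) in the authors' deposited table. Serpina6, the cortisol-binding globulin gene, stood at 0.54 (SE 0.29) in the authors' deposited table. Glucocorticoid targets had a median of −0.02 over 22. At an unadjusted p under 0.05, 3 were higher and 2 lower, against background shares of 1.34% and 1.2%. The higher ones were Sgk1 at 0.73 (SE 0.27), Igfbp1 and Tat, and the lower ones Angptl4 and Cdkn1a, in the authors' deposited table. Fkbp5 stood at 0.06 (SE 0.30) and Tsc22d3 at 0.08 (SE 0.29) in the authors' deposited table.

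Sex-biased liver genes were read because the labels give no sex. The Y-linked genes Ddx3y at 0.23 (SE 0.25), Uty at 0.19 (SE 0.27), Eif2s3y at −0.23 (SE 0.26) and Kdm5d at −0.23 (SE 0.27) stood on both sides of 0 in the authors' deposited table. The mean was 123 for Ddx3y and 76.6 for Eif2s3y, and the X-linked Xist had no row, in the authors' deposited table. Male-biased genes, which follow the pulses of growth hormone, were below 0 in 25 of 34 (median −0.12). At an unadjusted p under 0.05, 3 were lower and 0 higher, against background shares of 1.2% and 1.34%. The lower ones were Cyp2d9, Mup3 at −0.62 (SE 0.28) and Serpina12, a serpin of metabolic tissues, at −0.70 (SE 0.29) in the authors' deposited table. The list holds several major urinary protein (Mup) genes, which are near copies and not independent. Female-biased genes were above 0 in 10 of 14 (median 0.08), of which Slc22a26 reached an unadjusted p under 0.05. Whether the sex of the animals differed between groups was not tested.

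Regulators of hepatocyte identity lay slightly below 0. Of 51 liver transcription factor genes, 37 were below 0 with a median of −0.11, and 3 were lower and 0 higher at an unadjusted p under 0.05. The 31 that stand in no other list had a median of −0.07. Cebpa, a regulator of hepatocyte metabolism, stood at −0.52 (SE 0.21, mean 675) in the authors' deposited table, and the others were Ppara and Creb3l3. Hnf4a, central to the hepatocyte programme, stood at −0.07 (SE 0.24) and Prox1 at 0.02 (SE 0.23) in the authors' deposited table. Clock genes had a median of −0.05 over 19, with the repressor gene Cry1 at 0.68 (SE 0.29), Nr1d1 at −0.47 (SE 0.27), Arntl at 0.05 (SE 0.29) and Per2 at −0.14 (SE 0.30) in the authors' deposited table.

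Genes of secreted plasma proteins sat below 0 by small amounts. Of 29 secreted protein genes, 24 were below 0 (median −0.17), of 31 acute-phase genes 23 (median −0.20) and of 44 complement and coagulation genes 31 (median −0.16). The only member of these 3 lists at an unadjusted p under 0.05 was C1s1, which encodes a complement protease, at −0.52 (SE 0.21) in the authors' deposited table. Alb, the albumin gene, stood at 0.13 (95% interval −0.33 to 0.59), Apob at −0.23 and Saa1, an acute-phase apolipoprotein, at −0.22 (SE 0.19) in the authors' deposited table. The lists share genes such as the fibrinogens and are not independent. For the 6 secreted protein genes that stand in no other list the median turned to 0.03. Among the 15 genes with the highest means, which held 38.2% of the summed means, 10 were below 0, and Cyp2e1 was the 1 at an unadjusted p under 0.05.

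**Figure D4:**
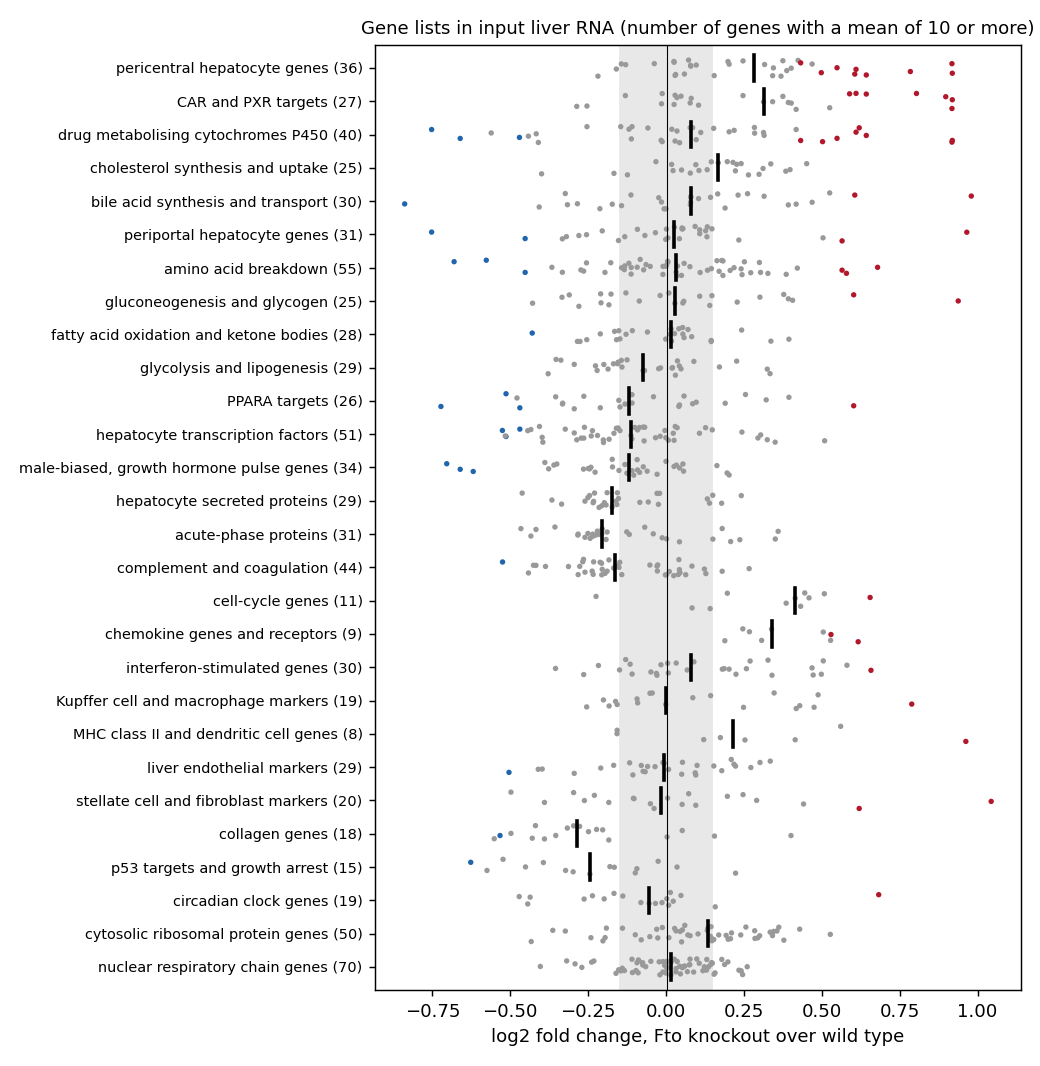
Log2 fold change, knockout over wild type, of the members of 28 gene lists at a mean of at least 10 (number in brackets), 1 point per gene with the list median as a black bar. Red and blue points are at an unadjusted p under 0.05, and the grey band spans the quartiles of all 9301 genes, −0.15 to 0.15; the medians of the pericentral, CAR and PXR, cholesterol, cell-cycle, chemokine and class II lists lie to its right, and those of the secreted, acute-phase, complement, collagen and p53 lists to its left.

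Markers of sinusoidal endothelium, stellate cells and Kupffer cells were centred near 0. In bulk RNA, fewer cells of a type and less RNA per cell cannot be told apart. Of 29 endothelial markers 14 were above 0 (median −0.01). Stab1, a scavenger receptor of sinusoidal endothelium, stood at −0.50 (SE 0.23), but its partner Stab2 stood at −0.11 (SE 0.22) and Kdr at 0.15 (SE 0.23) in the authors' deposited table. Of 13 bile duct cell markers measured, 8 reached a mean of 10 (median 0.12, and 0.00 over all 13), and none had an unadjusted p under 0.05. The defining keratin and adhesion genes had low means, 3.24 for Krt19, 6.50 for Krt7 and 2.13 for Epcam, while Krt18, which hepatocytes also express, had a mean of 336 in the authors' deposited table.

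Stellate cell and fibroblast markers had 10 above and 10 below 0 among 20 (median −0.02). Postn and the hepatocyte growth factor gene Hgf (0.62, SE 0.27) were the 2 higher at an unadjusted p under 0.05 in the authors' deposited table, while the vitamin A storage gene Lrat stood at 0.10 (SE 0.26). Collagen genes lay lower, with 14 of 18 below 0 and a median of −0.29. With no minimum mean it was −0.13 over 35. Of these Col5a3 stood at −0.53 (SE 0.27), Col1a2 at −0.50 (SE 0.28) and Col3a1 at −0.30 (SE 0.28) in the authors' deposited table. Only Col5a3 reached an unadjusted p under 0.05.

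Macrophage markers lay on both sides of 0, with 9 of 19 above (median 0.00). The defining Kupffer cell genes Clec4f at −0.16 (SE 0.24), Cd5l at −0.04 (SE 0.26) and Vsig4 at 0.00 (SE 0.28) lay near 0 in the authors' deposited table. The pan-macrophage gene Adgre1 stood at 0.43 (SE 0.27), Lyz2 at 0.48 (SE 0.27) and the receptor chain Fcer1g at 0.79 (SE 0.30) in the authors' deposited table. Class II and dendritic cell genes at a mean of at least 10 were above 0 in 6 of 8 (median 0.21). They included H2-Ab1, given above, its partner H2-Aa at 0.41 (SE 0.28), H2-Eb1 at 0.25 (SE 0.29) and the invariant chain Cd74 at 0.56 (SE 0.29) in the authors' deposited table. Of the 2 below 0, Ctss stood at −0.16 (SE 0.27) in the authors' deposited table. In this list H2-Ab1 alone reached an unadjusted p under 0.05. All 9 chemokine and chemokine receptor genes at a mean of at least 10 were above 0 (median 0.34). Of these Cxcl11, which draws T cells, stood at 0.62 (SE 0.30, mean 10.1) and Ccl9 at 0.53 (SE 0.26), both at an unadjusted p under 0.05, in the authors' deposited table. Interferon-stimulated genes had a median of 0.08 over 30, with Usp18 at 0.66 (SE 0.30) and Isg15 at −0.11 (SE 0.30) in the authors' deposited table.

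Lymphocytes and neutrophils were near the lower end of the table. No T or NK cell marker reached a mean of 10, and Cd3e had a mean of 2.34 in the authors' deposited table. Of the B cell list 3 reached it, with Ighm at −0.22 (SE 0.25), and of the neutrophil list 1, Lcn2, which hepatocytes also make, in the authors' deposited table. Erythroid markers lay below 0 in 8 of 9 (median −0.32). The alpha globin genes Hba-a1 at −0.48 (SE 0.30) and Hba-a2 at −0.43 (SE 0.29) stood on the same side as Alas2 in the authors' deposited table, while the transferrin receptor gene Tfrc, which other cells also express, stood at 0.57 (SE 0.27). The beta globin genes Hbb-bs and Hbb-bt stood at −0.32 and −0.52, with no p, in the authors' deposited table. The part of red cell RNA in the Alas2 difference was not tested. Markers of pancreas, fat, muscle and other neighbouring tissues reached a mean of 10 in 4 of 26, up to 87.2 for the intestinal Fabp2; the muscle actin gene Acta1 stood at −0.64 (SE 0.30, mean 10.8) in the authors' deposited table.

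At a mean of at least 10, most listed cell-cycle genes lay above 0 and most listed p53 targets below it. Cell-cycle genes were above 0 in 10 of 11 (median 0.41), at low means that summed to 305 over the 34 measured. The 1 below 0 was Ccnd1, at −0.22 (SE 0.29, mean 29.7) in the authors' deposited table. Over all 34, with no minimum mean, the median was 0.20. Genes under a mean of 10 went both ways, such as Cdk1 at −0.41 (SE 0.27) and Ccna2 at 0.42 (SE 0.28) in the authors' deposited table. Top2a, which untangles replicated DNA, stood at 0.66 (SE 0.30, mean 14.2) and the replication helicase genes Mcm2 at 0.51, Mcm5 at 0.46 and Mcm6 at 0.45 (each SE 0.30) in the authors' deposited table. Targets of p53 were below 0 in 13 of 15 (median −0.24). The cell-cycle inhibitor gene Cdkn1a stood at −0.63 (SE 0.30), the stress hormone gene Gdf15 at −0.57 (SE 0.30), Ccng1 at −0.30 (SE 0.28) and Mdm2 at −0.17 (SE 0.26) in the authors' deposited table. At a mean of at least 10, only Top2a and Cdkn1a of these lists reached an unadjusted p under 0.05.

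Housekeeping and stress lists held few genes at an unadjusted p under 0.05. Nuclear genes of the respiratory chain had a median of 0.02 over 70, ribosomal protein genes 0.13 over 50 and proteasome genes 0.06 over 36, with 0 at an unadjusted p under 0.05 in each. The ribosomal protein list had 36 of 50 above 0, with a median of 0.08 over the 15 at a mean of at least 50. Mitochondrially encoded genes were above 0 in 8 of 9 (median 0.20), also with 0 at an unadjusted p under 0.05. Unfolded protein response genes had a median of 0.02 over 25, with Hspa5 at 0.33 (SE 0.23), and heat shock genes 0.12 over 16, with Hspa8 at 0.51 (SE 0.28), in the authors' deposited table. RNA adenosine methylation genes, 20 at a mean of at least 10, had a median of 0.11 and 0 at an unadjusted p under 0.05. The other demethylase gene Alkbh5 stood at 0.09 (95% interval −0.37 to 0.54), the methyltransferase gene Mettl3 at 0.20 (SE 0.29) and Pcif1, which methylates the cap-adjacent adenosine of mRNA, at −0.27 (SE 0.28) in the authors' deposited table.

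Ces1b lies near Fto, so the surrounding genes were read as well. Within 5 Mb of Fto, counted between gene midpoints, 45 other genes had a mean of at least 10 and a median of −0.03. At an unadjusted p under 0.05, 3 were higher and 1 lower, against background shares of 1.34% and 1.2%. Without Ces1b, which prompted the reading, 2 of 44 were higher and 1 lower. Within 10 Mb 3 of 91 genes were higher and 2 lower, and within 20 Mb 4 of 206 were higher and 4 lower. The 4 within 5 Mb were Ces1b, at 1577 kb from Fto, the iron-sulfur assembly gene Ciapin1 at 0.89 (SE 0.27), the ribosomal protein hydroxylase gene Ogfod1 at 0.62 (SE 0.28) and Cpne2 at −0.64 (SE 0.30) in the authors' deposited table. All 4 lie on the same side of Fto. The nearest genes among those at a mean of at least 10, Rbl2, Aktip and Chd9, stood at −0.10, −0.26 and 0.33 in the authors' deposited table. None of them reached an unadjusted p under 0.05.

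**Figure D5:**
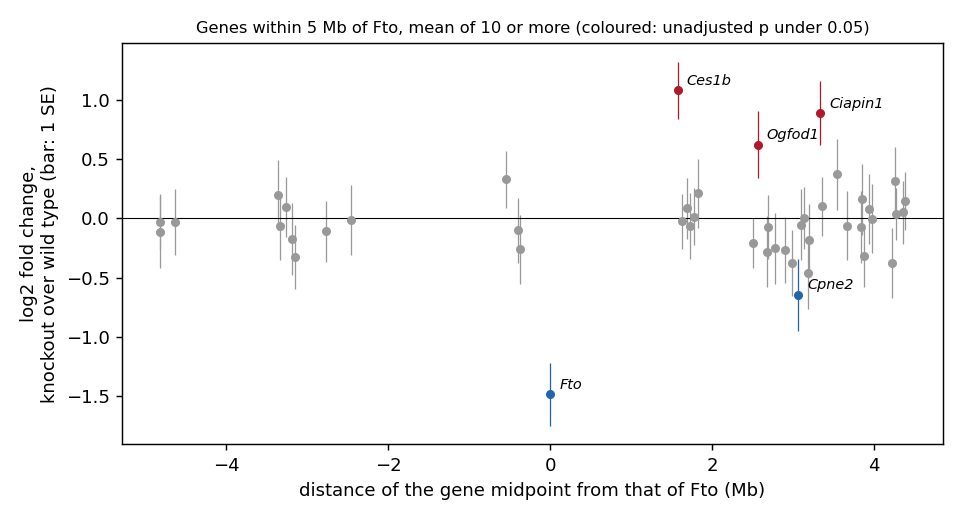
Log2 fold change, knockout over wild type, with bars of 1 SE, against the distance in Mb between gene midpoints and that of Fto, for genes with a mean of at least 10. Besides Fto, 4 of 45 genes are coloured for an unadjusted p under 0.05 (Ces1b, Ogfod1, Ciapin1 and Cpne2).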

How the data were processed

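Input RNA of wild-type and Fto knockout mouse liver was analysed from the comparison table that the authors deposited. The submitters' processing notes list STAR, bedtools 2.25.0, DESeq2 and the build mm10 without saying what each did; the sources used here give no counting rule, model or filter. Per the file headers, the deposited values are a mean normalized signal (an average of scaled counts), a log2 fold change with its SE, a statistic (a score, per the file headers), a p-value and an adjusted p-value. The statistic equalled fold change over SE in all 12883 genes and the p-value its 2-sided normal tail in all 12865 genes that have one (within 1e-06), so the p is that of a Wald test. From the lowest p, the authors adjusted over 14167 genes, more than have a p in the deposited table. Calls among genes outside it are not known. Library depth is unknown and no model was refitted. The immunoprecipitate table was only counted.

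Symbols were updated for 12869 genes by identifier. Counts and medians over 57 lists were computed with Python 3.11.15 and pandas 2.3.3, and no set test was run. The adjustment code was tested on simulated data. Named genes are Fto, called genes, the 15 highest and lowest by fold change over SE, and up to 6 members per list by p plus defining members. Members and lists were chosen with earlier results of these data known. Positions are from RefSeq GRCm38.p6, the same assembly as mm10. Results for some genes are not reported here.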

Additional observations from a re-analysis of the deposited data

How the results depend on the processing

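The 3 higher calls (Trim36, Serpina7 and Ces1b) were the same genes under each of the 5 other adjustments or p-values tried: adjusting over the genes in the table, over a mean of at least 10 or of at least 50, recomputing the normal p, and centring the fold changes. Fto was kept under all 5 too, and Gm10382 was lost at a mean of at least 50, which its mean of 30.7 does not reach, leaving 1 lower call. These settings could change little. The recomputed normal p equals the authors' p, and centring moved each fold change by only 0.004. The other settings adjusted over fewer genes than the authors' 14167. The agreement is therefore no separate support for the calls. At a mean of at least 50, 61 genes were higher and 52 lower at an unadjusted p under 0.05, against 124 and 111 at a mean of at least 10, since fewer genes were counted. Medians of gene lists changed sign in 4 of 54 lists with no minimum mean, in 4 of 48 at a mean of at least 50, in 0 of 54 after centring and in 9 of 51 when only genes of 1 list were kept. The secreted protein list is 1 of those 9. Immediate early genes also turned, from 0.13 over 15 genes to −0.19 over 3 at a mean of at least 50. Ranking by fold change alone kept 13 of 15 genes at each end. No paired analysis was possible because the deposited table holds no values of single replicates, and for the same reason no replicate could be left out.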

Other observations

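Genes were also grouped by shared symbol stem, for the 141 stems with at least 8 genes at a mean of at least 10. Stem medians ran from −0.38 to 0.33, and the groups named here were picked after their values were seen. The lowest was that of the major urinary proteins, pheromone carriers that male liver secretes. Of its 17 genes, 15 were below 0 and 4 lower at an unadjusted p under 0.05, against a background share of 1.2%. Mup6 stood at −0.77 (SE 0.28) and Mup3 at −0.62 (SE 0.28) in the authors' deposited table; the Mup genes are near copies, so reads could be split between them. The highest was that of the SR splicing factors, with 9 of 10 above 0 and Srsf7 at 0.67 (SE 0.28) in the authors' deposited table. The phosphodiesterase stem followed at 0.22, with Pde4b, which breaks down cyclic AMP, at 0.81 (SE 0.28) in the authors' deposited table.

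Among 46 snRNA genes at a mean of at least 10, 9 were higher at an unadjusted p under 0.05 and 0 lower. The background shares were 1.34% and 1.2%. Of the 9, 8 were U1 copies, which are near identical and not independent.

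The authors' deposited table gives no p for 18 genes. Several of these respond to feeding (Scd1, Pklr, Lpin1, Apoa4), and others are of red cells (Hbb-bs, Hbb-bt), the acute phase (Saa3), interferon (Igtp, Irgm2) and female-biased liver expression (Cyp2b9). Igtp stood at 0.58 (SE 0.28) and Scd1 at −0.34 (SE 0.25) in the authors' deposited table. The sources used here give no reason. Of the 18, 16 had a mean of at least 10. Their fold changes entered the medians and the counts above or below 0 of the lists that hold them.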
